A study of Homo sapiens with 4 samples.

Results

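The intervals described here are SOX2-bound sites, listed for full-length SOX2 and not for its DNA-binding domain, that lay in introns of very long human genes. They were chosen by their positions in the deposited SOX2 peak list. An interval belonged to the set when its row lacked the seventh column, which the rows shared with the list of the DNA-binding domain carry. Its centre also had to lie in no exon, more than 1 kb from every annotated transcript start, and inside a protein-coding gene with a span of 500 kb or more (hg19, GENCODE release 44 mapped to that build). The rule found 3628 sites among 57907 intervals of the SOX2 list, of which 43607 were full-length-only. They lay in 240 of 324 very long genes, out of 20162 protein-coding genes.

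The cells were BJ fibroblasts, an established line of human foreskin fibroblasts, which carried either V5-tagged SOX2 or its V5-tagged DNA-binding domain, SOX2-DBD. Binding was mapped by CUT&RUN, in which an antibody, here against the V5 tag, brings a nuclease to the bound DNA and the released fragments are sequenced. The 4 samples, 2 per group, were taken after 48 h of ectopic expression, so every site was measured in cells that were given the protein. The 3 lists analysed all belonged to replicate 1, so no value below has a replicate error and none was tested. No list from cells without a tagged protein was analysed here. Confidence intervals are 95% intervals that cover counting over intervals only, and the sequencing depth is unknown. Whether a list was called on 1 sample or on pooled samples is not given in the sources used here.

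SOX2 is a transcription factor of pluripotent and neural progenitor cells. Its high-mobility-group (HMG) domain inserts into the minor groove and bends DNA, and the factor is known as a pioneer because it can bind sites within closed chromatin. Very long genes owe their length to large introns. Many of them encode proteins of neurons, such as adhesion molecules, guidance receptors and channels.

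To show where a SOX motif can lie in such a site, windows of high total signal that hold a longer SOX motif are printed. Only 11.6% of members hold this longer motif. The motif has 8 bases, which are A or T, A or T, CAA, A or T, and GG, and it was sought on both strands. From the members with the highest total signal that held it in the central 200 bp, 6 are printed 5′ to 3′ from the plus strand of the GRCh37 (hg19) reference with the motif in capitals. They lay in introns of RBMS3 (chr3:29999613-29999812), FAF1 (chr1:51269605-51269804), ZNF407 (chr18:72468797-72468996), KCNMA1 (chr10:78816853-78817052), NTM (chr11:131959168-131959367) and CEP112 (chr17:64133697-64133896).
RBMS3: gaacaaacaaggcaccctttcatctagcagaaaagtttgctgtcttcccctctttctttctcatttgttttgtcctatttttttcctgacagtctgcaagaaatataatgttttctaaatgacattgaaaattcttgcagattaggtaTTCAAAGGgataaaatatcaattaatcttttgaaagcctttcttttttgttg
FAF1: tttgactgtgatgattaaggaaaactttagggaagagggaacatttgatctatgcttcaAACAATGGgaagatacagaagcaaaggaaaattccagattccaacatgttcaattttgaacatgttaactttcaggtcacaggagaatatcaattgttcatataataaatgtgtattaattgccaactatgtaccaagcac
ZNF407: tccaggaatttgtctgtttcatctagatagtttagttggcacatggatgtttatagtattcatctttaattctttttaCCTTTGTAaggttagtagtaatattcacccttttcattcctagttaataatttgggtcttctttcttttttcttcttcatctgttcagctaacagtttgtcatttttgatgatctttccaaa
KCNMA1: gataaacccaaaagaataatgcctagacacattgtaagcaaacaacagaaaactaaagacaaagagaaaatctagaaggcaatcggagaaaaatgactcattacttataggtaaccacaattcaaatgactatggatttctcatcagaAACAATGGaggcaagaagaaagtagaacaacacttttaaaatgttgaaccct
NTM: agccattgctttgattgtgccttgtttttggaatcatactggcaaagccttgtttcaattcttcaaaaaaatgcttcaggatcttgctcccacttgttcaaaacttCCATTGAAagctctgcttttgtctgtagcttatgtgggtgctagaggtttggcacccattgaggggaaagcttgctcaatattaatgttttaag
CEP112: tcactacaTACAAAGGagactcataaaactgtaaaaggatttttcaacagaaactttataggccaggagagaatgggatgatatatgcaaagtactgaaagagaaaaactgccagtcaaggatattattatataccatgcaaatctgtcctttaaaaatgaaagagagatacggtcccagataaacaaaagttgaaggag

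All 6 windows were rich in A and T, with a GC content of 30.5% in ZNF407 to 40% in NTM. The motif began at base 149 of the RBMS3 and KCNMA1 windows, at base 60 in FAF1, 79 in ZNF407, 107 in NTM and 9 in CEP112. In ZNF407 and NTM it read in reverse on the printed strand. The KCNMA1 window held 3 copies of the shorter SOX core motif, ACAAAG or ACAATG on either strand, counting the copy inside the longer motif. The same window held an AP-1 motif, TGACTCA or TGAGTCA. The RBMS3 and NTM windows held no core motif, since the longer motif does not require it.

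The RBMS3 site ranked first by total signal. It spanned 2144 bp at chr3:29998641-30000784 in intron 14 of 16 of RBMS3, which encodes an RNA-binding protein, 1383.43 kb from the gene's start. Its deposited total signal was 11009, the highest of all members, against a median of 2276 (interquartile range 1651 to 3298). Its maximum signal was 13, against a median of 9 and a highest value of 27 over members. The next 4 by total signal lay in SEMA5A, a semaphorin of axon guidance (10563), SLC4A10, a bicarbonate transporter (10495), WDPCP, a cilium gene (9622), and FBXL17, a subunit of a ubiquitin ligase (9328). The 200-bp windows of these 4 held neither the 8-base motif nor the core motif. The FAF1 site was as wide as the RBMS3 site, at 2144 bp, and the third widest, in the channel gene TRPM3, spanned 2031 bp. The most core motifs in a window was 4, in 9 members. The 5 of them with the highest signal lay in TENM2, AKAP6, GPHN, SLC9A9 and SYN3, and their total signal ranged from 1979 to 3258. The KCNMA1 site, with 3 core motifs, had a total signal of 7971.

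Over the whole list, 75.3% of intervals were full-length-only. In introns of very long genes the share was 75.7% (Wilson interval 74.5 to 76.9), or 3628 of 4791 intervals, and in introns of shorter genes it was 77.2% (76.7 to 77.7) of 25614. The mark that separates full-length-only from shared intervals was part of the rule, so these shares describe the lists only. The other 1163 intervals in introns of very long genes were shared with SOX2-DBD.

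For the sequence available, members were sparser than full-length-only intervals in introns of shorter genes and denser than those outside protein-coding genes. Eligible sequence, meaning intron outside exons, more than 1 kb from transcript starts and without undetermined bases, came to 256.4 Mb in very long genes. It held 14.1 members per Mb (Poisson interval 13.7 to 14.6). Eligible introns of shorter genes held 23.8 full-length-only intervals per Mb (23.5 to 24.1) over 830.5 Mb, so the ratio was 0.594 (0.574 to 0.616). Sequence outside protein-coding genes held 10.5 per Mb. The density did not follow length in 1 direction. It was 16.6 per Mb in genes under 50 kb, 26.8 in genes of 100 to 200 kb, 17.3 in genes of 500 to 1000 kb and 8.69 in genes of 1 Mb or more. Shared intervals had the same order, with 3.80, 8.04, 5.20 and 3.40 per Mb in those classes.

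**Figure D1:**
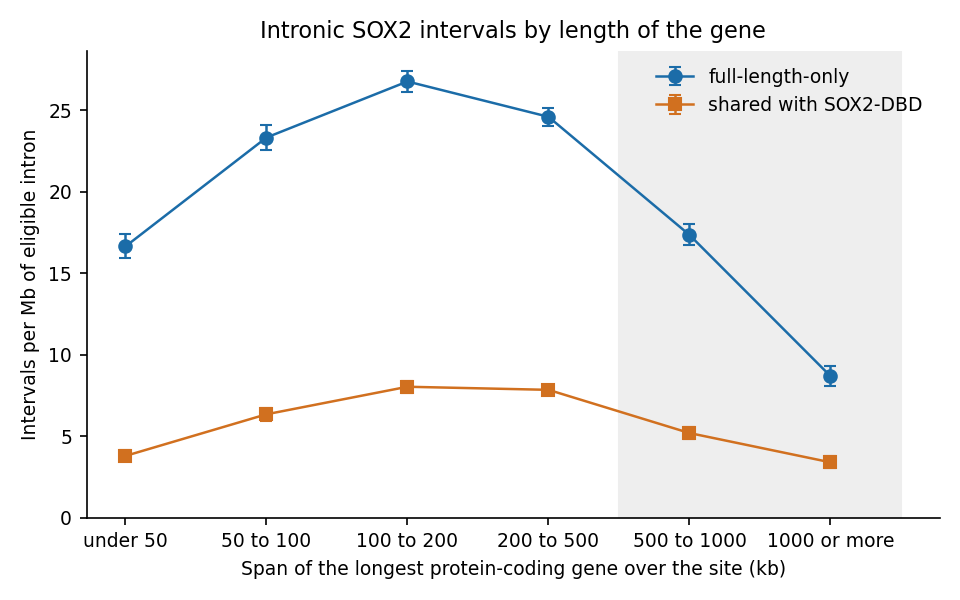
Intervals per Mb of eligible intron (vertical axis) by the span of the longest protein-coding gene over the site (horizontal axis, kb), for full-length-only (circles) and shared (squares) intervals of the SOX2 list, with 95% Poisson intervals as bars. Both classes were densest at 100 to 200 kb and lowest above 1000 kb or under 50 kb, and the shaded classes hold the 3628 sites described here.

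The densities were also taken by base composition. In tiles of 10 kb with a GC content under 34%, very long genes held 15.4 sites per Mb and shorter genes 40.2. At 36 to 38% the densities were 17.1 and 39.1 per Mb, and at 44% or more they were 3.88 and 6.14. The ratio lay between 0.383 and 0.632 over the 6 bands.

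Single genes ranged from 0 to many members. The median very long gene held 7 members, or 8.62 per Mb of eligible intron, with an interquartile range of 0 to 27.1 and a highest density of 80.1. Of the 324 genes, 240 (74.1%, Wilson interval 69.0 to 78.5) held at least 1 member and 84 held none. As few as 52 genes (16.0%) held 50% of the assignments of sites to genes, of which there were 3677 because 49 sites lay in 2 overlapping very long genes. There were 12 genes with 40 or more members, which held 626 assignments, while 54 genes with 1 to 4 members held 122.

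PRKG1, which encodes a cGMP-dependent protein kinase, held the most members. Its 73 sites gave 58.2 per Mb (Poisson interval 45.6 to 73.1), and it held 12 shared intervals. DPYD, the gene of the enzyme that starts pyrimidine breakdown, followed with 62 members and 16 shared intervals. GRIK2, a subunit of kainate-type glutamate receptors, held 58 and 28. VPS13B, a lipid transfer protein of the Golgi, MACROD2, an ADP-ribose hydrolase, and MAGI2, a scaffold protein of cell junctions, held 52 each. EXOC6B, a subunit of the exocyst that tethers vesicles, held 50. NEGR1, a neuronal adhesion protein, held 49, RBMS3 held 48 and NAALADL2, a peptidase-like protein, held 47.

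The next 5 were RABGAP1L (42) and TBC1D5 (41), both with domains that act on Rab GTPases of vesicle traffic, the unnamed gene ENSG00000283563 (38), NLGN1, a neuroligin of synapses (37), and INPP4B, a phosphatase of inositol lipids (37). ENSG00000283563 overlaps RBMS3, and the 2 genes share sites. Among these 15 genes, GRIK2, NEGR1 and NLGN1 are the ones best known from neurons.

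Per Mb of eligible intron the order changed. EXOC6B came first with 80.1 (59.5 to 105.6), then DPYD with 70.3 (53.9 to 90.2) and VPS13B with 64.7 (48.3 to 84.9). PTPRK, a receptor tyrosine phosphatase, had 63.2, UTRN, the dystrophin-like protein utrophin, 62.4, and PRKD1, protein kinase D1, 60.4. SBF2, a phosphatase-related protein, had 60.4 and FAF1, a ubiquitin-binding protein, 60.1. The Poisson intervals of all 8 overlapped, so their order is not resolved by the counts.

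At the other end, the longest genes without a member included RBFOX1, PTPRD, CSMD1, PCDH15, AGBL4, CCSER1, GPC5, DPP10 and CNTN5. RBFOX1, a splicing regulator of neurons and muscle, was the longest protein-coding gene at 2473.54 kb. A count of 0 in its introns allows a density of up to 1.26 per Mb, taking 3 intervals as the limit. For PTPRD, a synaptic receptor phosphatase, the limit was 1.33 per Mb, and for CSMD1, a complement-related membrane protein, 1.503. The 84 genes together offered 72.2 Mb of eligible intron, and the highest limit of any of them was 6.69 per Mb. In 78 of them the SOX2 list had no interval of either class in eligible introns, and the other 6 held shared intervals only. AGBL4 and CCSER1 were among these 6, with 1 shared interval each.

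Other genes of more than 2 Mb, looked at for their length after the values were seen, ran from almost none to many. CNTNAP2, a neurexin-related protein of axons, held 1 member over 2305 kb. DMD, which encodes dystrophin, also held 1, DLG2, a synaptic scaffold, held 9, and MACROD2 held 52. MACROD2 stood at 26.1 per Mb (19.5 to 34.2) and DLG2 at 4.31 per Mb (1.97 to 8.18). These intervals cover counting only, and the difference between the genes was not tested.

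**Figure D2:**
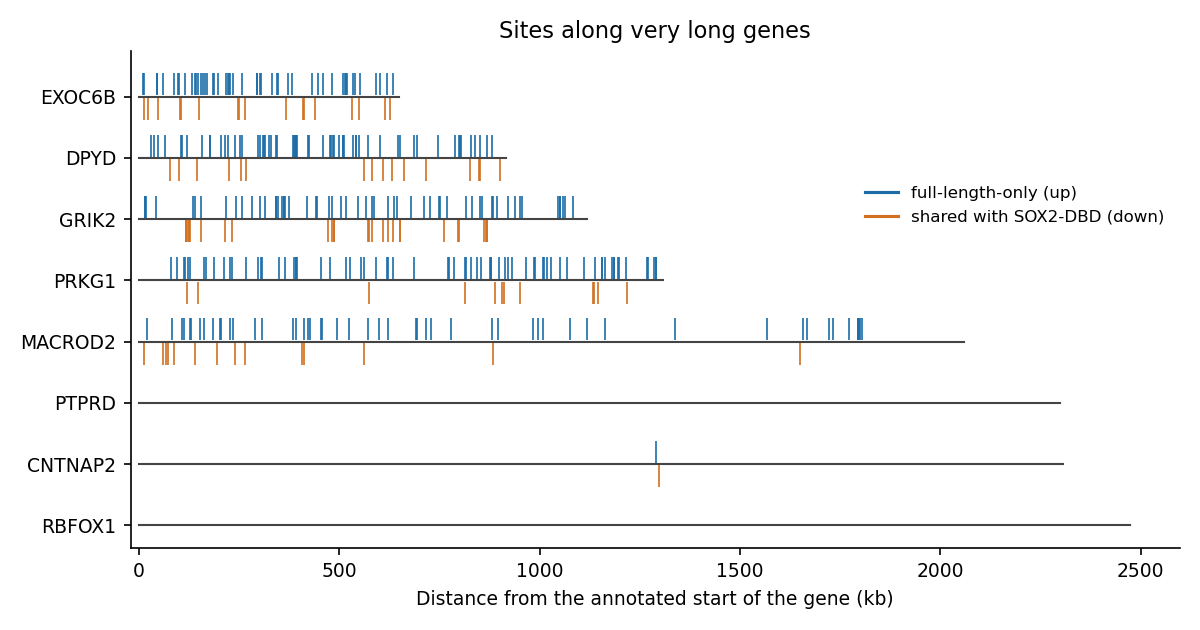
Positions of full-length-only sites (upward ticks) and shared sites (downward ticks) along 8 very long genes, drawn to scale as distance in kb from the annotated gene start. The 5 upper genes hold 50 to 73 full-length-only sites along their length, whereas CNTNAP2 holds 1 and PTPRD and RBFOX1 hold 0.

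In genes with many members, most stretches of 100 kb held a member. The 73 genes with 20 or more members comprised 580 full tiles of 100 kb, of which 45 held no member, and 50 of these genes had a member in every tile. The median distance between neighbouring members was 17.2 kb, from 8.77 kb to 32.5 kb over the genes. Because these genes were picked for their number of members, few empty tiles and short distances follow in part from that choice. Whether members were placed evenly was not tested. PRKG1 had a site in each of its 13 tiles, with at most 10 in any of them. In DPYD the richest of 9 tiles held 14 sites. MACROD2 had 3 tiles without a site out of 20 and a longest gap of 253.04 kb, and RBMS3 had a gap of 325.3 kb.

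By function, the lists of genes differed. Of 30 synaptic and neuronal adhesion genes of this length, 17 held a member, against 74.1% of all very long genes, and the median gene had 2.43 sites per Mb. NEGR1 (57.9 per Mb) and NLGN1 (42.8) were high, while CNTNAP5, CNTN4, TENM1 and CLSTN2 had 0. Of 11 cadherins, protocadherins and catenins, the proteins of cell-cell junctions, 7 held a member and the highest, CDH13, had 9.84 per Mb. Of 8 glutamate and GABA receptor genes, 2 held members, GRIK2 with 54.3 per Mb and GRM5 with 11.03. The other 6 were at 0, among them GRIN2B, a subunit of NMDA receptors. Of 14 ion channel genes and their subunits, 10 held a member, with KCNQ5 (33.3 per Mb) and TRPM3 (21.8) highest and a median of 4.39.

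The lists with the highest medians were those of mesenchymal matrix, signalling and transcription genes. All 6 matrix and cytoskeleton genes of mesenchymal cells, the class to which fibroblasts belong, held members. Their median was 26.7 per Mb, from 6.67 in THSD7B to 51.5 in LPP, a protein of focal adhesions. Of 22 kinases, phosphodiesterases and scaffolds of signalling, 20 held a member, with a median of 19.1 per Mb. EXOC4 (42.7), MAGI2 (38.7) and PARD3 (35.1), a polarity protein, followed PRKG1, and NRG3 and PDE10A had 0. Of 21 transcription and RNA-binding factors, 17 held a member, with a median of 14.5 per Mb. SOX6, a relative of SOX2 itself, had 48.7, GLIS3 45.5 and ZBTB20 40.1, against 0 in SOX5, the nearest relative of SOX6. The lists are small, were chosen with earlier results of these data known, and share some genes. A median depends on which genes were put in the list, so the lists are given as counts and medians only. Whether their order goes with the type of cell was not tested.

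The remaining lists held both extremes. Among 6 receptor tyrosine phosphatases, PTPRK (63.2 per Mb), PTPRM (38.5) and PTPRG (22.8) had members, and PTPRD, PTPRT and PTPRN2 had none. Among 10 axon guidance genes, SEMA3A had 53.5, SEMA5A 39.4 and ROBO1 31.7 per Mb, while DCC, EPHA6, UNC5D and PLXNA4 had 0. Of 12 genes of the dystrophin complex and of heparan sulfate proteoglycans, 9 held a member. UTRN had 62.4 per Mb and its relative DMD 0.47, and GPC6 had 26.8 and its relative GPC5 had 0. Among 21 genes at common fragile sites, stretches that break under replication stress, 17 held a member. They ran from 70.3 per Mb in DPYD to 0 in genes such as CSMD1, CSMD3 and WWOX, with a median of 4.31. No expression data of these cells were analysed here.

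**Figure D3:**
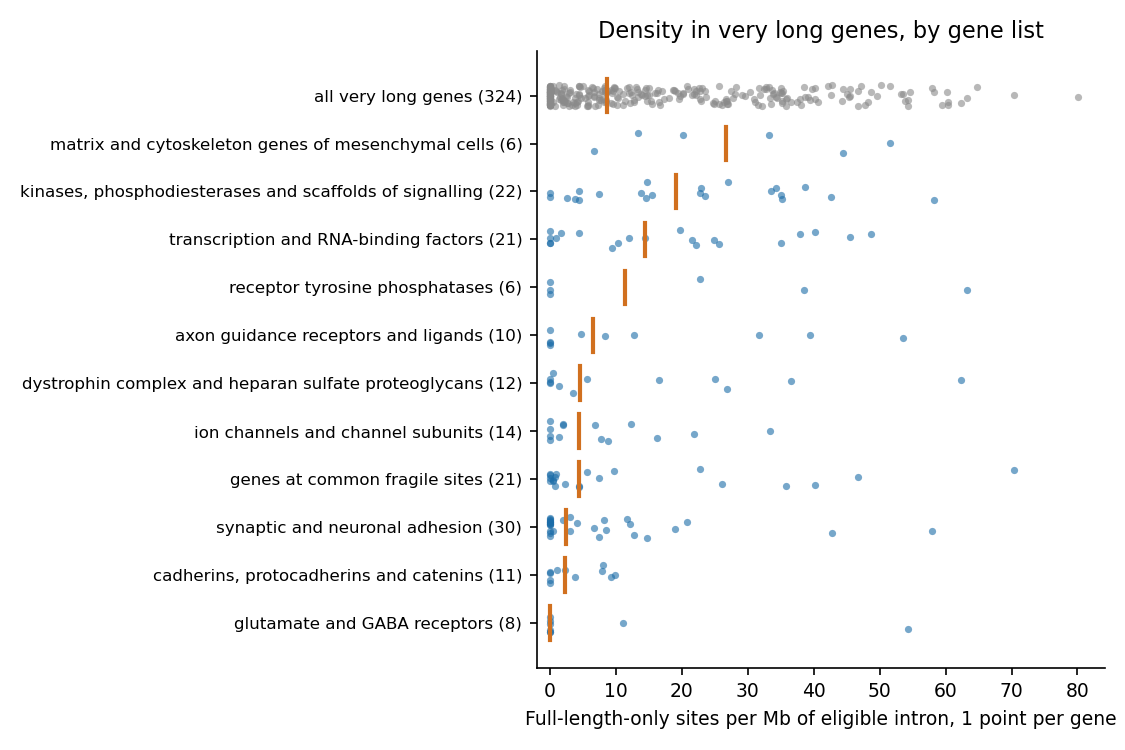
Full-length-only sites per Mb of eligible intron (horizontal axis) for each very long gene (points), by gene list, with the number of genes in brackets and the median as a vertical bar. All lists but 1 include genes at 0, and medians run from 0 for glutamate and GABA receptors to 26.7 for mesenchymal matrix and cytoskeleton genes, against 8.62 for all 324 genes.

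The density in a gene went with that around it. Within 500 kb on either side, measured over eligible sequence, genes without a member had a median of 4.09 full-length-only intervals per Mb, and 24 of the 84 had none there. Genes with a member had a median of 20.2. The 38 genes with more than 40 sites per Mb had surroundings of 11.3 per Mb or more, with a median of 23.7. Across the 324 genes Spearman's rho between gene and surroundings was 0.624 and Pearson's r was 0.515. Neighbouring genes share their surroundings, so these points are not independent. Exceptions ran both ways. DLG2 had 4.31 sites per Mb with 32.8 around it, and EXOC6B had 80.1 with 16.9. The density of members also went with that of shared intervals in the same introns (rho 0.858), which come from the same list. Across genes, rho was -0.04 with the GC content of the whole gene and -0.17 with span. The pooled densities above were nevertheless lower in tiles of high GC and in genes of 1 Mb or more.

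**Figure D4:**
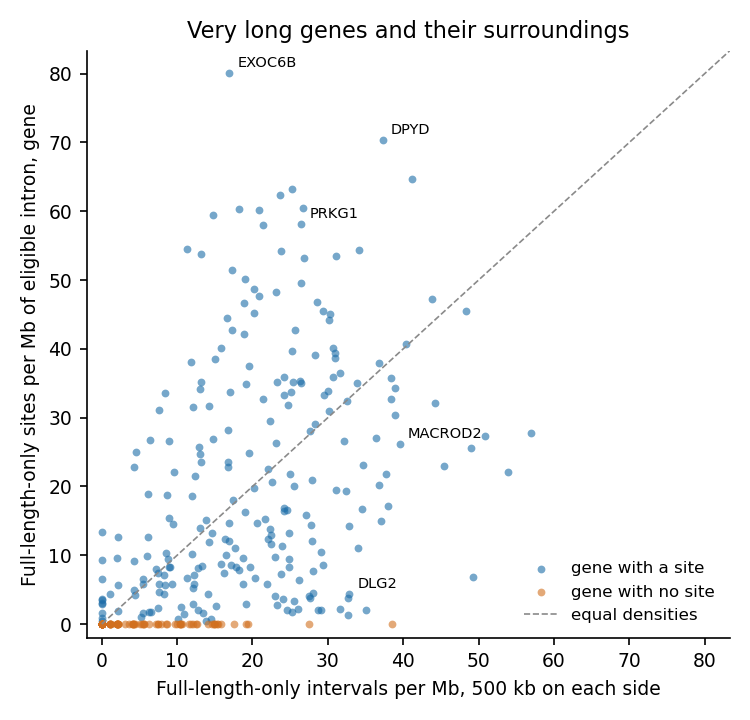
Full-length-only sites per Mb of eligible intron in each of 324 very long genes (vertical axis) against full-length-only intervals per Mb of eligible sequence within 500 kb on each side (horizontal axis). The 84 genes without a site (lower row of points) mostly have few around them, and the dashed line marks equal densities.

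Chromosomes differed as well. The 7 very long genes of chromosome 16 had 2.97 members per Mb and those of chromosome 11 had 8.74, against 21.8 on chromosome 6 and 23.5 on chromosome 14. On the X chromosome, 7 of 13 genes held 28 members in all, or 2.31 per Mb, against 14.9 per Mb on the autosomes. These densities were not adjusted for the number of copies of each chromosome in the cells, and its part was not tested.

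Within genes, the members were spread from start to end. With each gene cut into 10 equal stretches from its start, the density ran from 12.5 per Mb (11.2 to 13.9) in the third to 16.5 per Mb (14.99 to 18.2) in the ninth. First introns of the longest transcript held 502 members (13.8%, Wilson interval 12.8 to 14.999) and 18.6% of the eligible sequence. Their density was 10.5 per Mb (9.64 to 11.5), against 14.8 (14.2 to 15.3) in later introns. The other 158 members lay in no intron of the longest transcript, where the density was 20.6 per Mb (17.5 to 24.0). In shorter genes the densities were 21.1 per Mb in first introns, 24.9 in later introns and 20.4 in neither. Members lay at a median of 23.1 kb from the nearest transcript start and 10.2 kb from the nearest exon. Positions taken every 1 kb over the same introns lay at 28.8 kb and 12.2 kb. In shorter genes the sites lay at 9.53 kb from a start and the positions at 9.17 kb.

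In shape and signal the members resembled other full-length-only sites. Their median width was 568 bp (interquartile range 440 to 747 bp), against 559 bp in shorter genes. Their median total signal was 2276, against 2304.5. Total signal ran from 1184 to 11009 and went with width across members (Spearman's rho 0.828, n = 3628). A list named as down-sampled, which the rule did not use but which belongs to the same sample, held an overlapping interval for 2327 members (64.1%, Wilson interval 62.6 to 65.7). Over all full-length-only intervals the share was 64.3%, so the members stood at the background. With members split by total signal into 4 classes of about equal size, the share from the lowest to the highest class was 62.6%, 62.9%, 64.5% and 66.6%.

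The sequence under the members had a narrow base composition. The 200-bp windows averaged 33.4% GC with an SD of 4.16 over windows, against 38.6% with an SD of 8.13 for positions every 1 kb over the same introns. Windows 10 kb downstream of the members averaged 37.9%, and sites in shorter genes averaged 33.3%. CUT&RUN fragments are released by a nuclease that cuts A- and T-rich DNA more readily, and how much of this composition comes from that was not tested.

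Repeated sequence was scarcer at members than in the introns around them. In 1.38% of member windows (Wilson interval 1.05 to 1.81), at least 50% of the words of 31 bases occurred more than once in the genome, compared with 9.04% (8.15 to 10.0) of the windows 10 kb downstream. Positions every 20 kb in the same introns gave 9.27%, sites in shorter genes 1.73%, and shared intervals in introns of very long genes 0.258%. At least 1 repeated word stood in 16.3% of member windows, 28.3% of windows downstream and 9.89% of those shared intervals. How reads that map to several places were treated is not given in the sources used here, and its part in these differences was not tested.

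The SOX core motif was present in 1735 member windows (47.8%, Wilson interval 46.2 to 49.4), against 29.4% of the windows 10 kb downstream and 28.3% of positions over the same introns. Of these windows 1307 held 1 copy, 356 held 2, 63 held 3 and 9 held 4. Sites in shorter genes had the motif in 46.1%, a difference of 1.69 percentage points (Newcombe interval -0.07 to 3.46), and the whole SOX2 list in 47.3%. Shared intervals in the same genes had it in 46.2% (43.3 to 49.0). By base composition, the gap to positions was smallest under 25% GC, where 30.8% of 52 members and 24.7% of positions held the motif. Among windows of 30 to 35% GC, 48.9% of members and 31.8% of positions held it, and at 45% GC or more the shares were 55% of 20 members and 19.6%. Members with and without the motif had median total signals of 2274 and 2282.

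Toward the centre of the interval, motifs became denser. Core motifs numbered 3.17 per kb per site within 100 bp of the centre and 1.85 beyond 300 bp, a ratio of 1.71. For AP-1, the site of the FOS and JUN factors that are active in fibroblasts, the values were 0.345 and 0.139, a ratio of 2.49. Around the centre of the maximum signal instead, the ratios at members were 1.65 for the core motif and 2.96 for AP-1. At the median width of 568 bp, sequence beyond 300 bp lies outside the interval, so these ratios set sites against their surroundings. The 8-base motif was in 11.6% of member windows (10.6 to 12.7) and in 6.98% of positions.

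**Figure D5:**
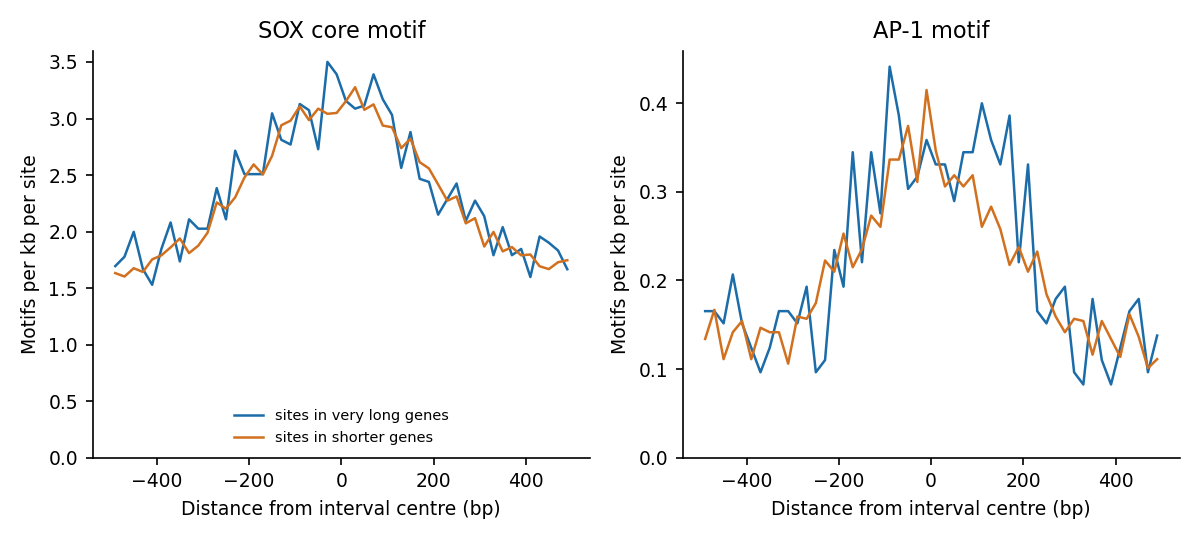
Motifs per kb per site (vertical axes) of the SOX core (left) and AP-1 (right) in bins of 20 bp by distance from the interval centre (horizontal axes, bp), for full-length-only sites in very long genes (n = 3628) and shorter genes (n = 19776). Both motifs peak around the centre in both classes, with 3.17 core motifs per kb within 100 bp and 1.85 beyond 300 bp at sites in very long genes.

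The AP-1 motif set members apart from shared intervals of the same genes. It was in 239 member windows (6.59%, Wilson interval 5.83 to 7.44), against 15.2% of the 1163 shared intervals, a difference of 8.63 percentage points (Newcombe interval 6.50 to 10.9). Positions over the same introns had it in 2.95%, windows downstream in 2.67%, and sites in shorter genes in 6.33%. Shared intervals are narrower, with a median of 378 bp against 568 bp, and had a mean GC content of 35.02%. Their listed widths ran down to 1 bp, although no total signal was under 1187 and no maximum signal over 25. How shared rows were bounded is not given in the sources used here, so their width and centre may not be those of whole peaks. The part of bounds, width or GC content in the AP-1 difference was not tested. The motif of TEAD factors (GGAATG) was in 15.5% of members and 10.7% of positions, and that of forkhead factors (TGTTTAC) in 4.71% and 3.43%. The octamer of POU factors (ATGCAAAT) was in 2.67% and 2.29%, the RUNX motif (TGTGGT) in 13.7% and 12.8%, and the E-box motif (CAGCTG) in 5.07% and 5.98%. The composite SOX-OCT motif of pluripotent cells was in 2 member windows. All were sought on both strands, and a match shows only that these letters were present.

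The bound of 500 kb fell between genes of both kinds. The 5 genes just above it, PPFIA2, KCNAB1, SPOCK3, ANO5 and AFF2 (500.057 to 501.579 kb), held 12 members in all, each of them in KCNAB1, a potassium channel subunit. The 5 just below, DIAPH3, ITPR2, CACNA2D1, RPS6KA2 and DST (496.844 to 498.346 kb), held 23, 9, 20, 6 and 30 full-length-only intronic intervals.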

How the data were processed

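BJ fibroblasts with V5-tagged SOX2 or SOX2-DBD were profiled by CUT&RUN, and 3 peak lists of replicate 1 were analysed. Each interval's total and maximum signal are the authors' deposited values, in unstated units. The submitters' processing notes name hg19, Bowtie2 2.3.4.1, SAMtools, bedtools 2.27.1, SEACR 1.3 and deepTools 3.5.0. The thresholds, filters, pooling and normalization are not given in the sources used here. The deposited down-sampled list holds positions only. Signal was used only within the SOX2 list.

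Of 59561 rows, 1654 exact duplicates were removed, and no full-length-only interval overlapped any of the 15220 SOX2-DBD intervals. Deposited starts were read as 0-based and converted, so positions given here are 1-based. In all, 0 intervals reached beyond a chromosome end. Centres were set against all exons and transcript starts of the annotation. Where coding genes overlapped, the longest gave the class. Windows of 200 bp were searched for 14 motifs on both strands. Overlap was counted from 1 bp. Shares have Wilson intervals, densities exact Poisson intervals and differences of shares Newcombe intervals, all at 95%, for counting error only.

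Genes were named by rule: the 15 with most members, the 8 densest, the longest 10 without a member, 5 on each side of 500 kb, and examples from 11 gene lists. An item that this rule names is not reported here. Intervals named were the 5 of highest total signal, the 3 widest and the 5 with most core motifs. Also named were the 6 of highest total signal with the 8-base motif, which are printed and leave out chromosome 8. The members and the lists were chosen with earlier results of these data known. Alternatives covered span, signal, start distance, exons, window, motif, overlap, chromosomes and GC. The repeat measure was added after the data were seen. Overlap, motif, density and repeat code was tested on simulated data. Work used python 3.11.15, numpy 2.4.6, pandas 2.3.3, scipy 1.17.1, numba 0.67.0 and matplotlib 3.10.9.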

Additional observations from a re-analysis of the deposited data

Results flagged for a closer look

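Inside very long genes, 60 intervals stood in the SOX2-DBD list alone and entered no comparison above. They were 6.52% (Wilson interval 5.10 to 8.30) of the 920 intervals of that kind. For scale, the rule gave 3628 members among 43607 full-length-only intervals, and these shares were not compared. The 60 intervals are given only because they lie outside the comparisons of the full-length protein.

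A seventh column stands in the shared rows of the SOX2 list, and its meaning is not stated. Of the 1163 shared sites in introns of very long genes, 378 carried a value of 1 or more (32.5%, Wilson interval 29.9 to 35.2), with a highest value of 4. In introns of shorter genes the share was 35.6% (34.4 to 36.9).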

How the results depend on the processing

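No paired analysis was possible because no list of replicate 2 was analysed, and for the same reason no replicate could be left out. Of 76 values under alternatives, 48 stayed within the 95% interval of the main value, or within 1.5 times it for the number of members. With a span of 300 kb there were 7749 members, a density ratio of 0.751, 79.9% of genes with a member and 15.7% of sites in first introns. With 1 Mb these were 822, 0.382, 64.8% and 16.9%, with a mean GC of 33.5% and a median width of 552 bp. The 50% of the list with higher signal gave 1692 members, 67.3% of genes, 33.2% GC, 12.7% in first introns and a width of 756.5 bp. There were 2327 members in the down-sampled list, and 54.8% when 50% of the interval had to be covered. The density ratio was 0.565 beyond 5 kb from starts, 0.629 with whole intervals outside exons and 0.447 weighted over GC bands. Counting genes from 5 members gave 57.4%. Windows of 100 bp lowered the share with the SOX core to 27.3% and with AP-1 to 3.09%. Windows at maximum signal gave 33.6% GC, 7.97% with AP-1, and a SOX core difference from shorter genes of -0.71 points. The 8-base motif gave 11.6% and a difference of -0.43 points. The sign of that difference thus depended on the window and the motif, and the cause was not tested.

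Only lists of peaks were used, with no replicates, no depth and no cells lacking a tagged protein. Differences between genes therefore have no replicate check. The members were selected on absence from the SOX2-DBD list, whose threshold is not given in the sources used here, so a site below that threshold cannot be told apart from an unbound one.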
